A study of Zea mays with 2 samples.

Results

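The genes described here encode the enzymes that build the starch polymers of the maize kernel. They are 4 starch synthases (wx1, ss1, su2 and du1), 2 branching enzymes (sbe1 and amylose extender, here ae) and 2 debranching enzymes (su1 and zpu1). They were taken by gene identifier, and all 8 were found among the 41406 genes listed in both libraries. The study sequenced messenger RNA from maize endosperm, the starch-storing tissue of the kernel, 12 days after pollination. There was 1 library labelled dek40, a defective kernel mutant, and 1 labelled wild type. The sample labels name dek40, while the series title and design text name dek41, so the mutant is called here the library labelled dek40. The inbred background, the kind of mutant allele and any pooling of kernels are not stated in the labels. The gene table used for names gives the symbol Dek40 to GRMZM2G019538, which had 19.6 FPKM in the wild type against 32.03 RPKM in dek40. With the scaling described below, its log2 ratio was 0.28, with a counting interval of -0.02 to 0.60 that included 0. The label may mean another gene, and with the allele unknown its level does not check the label.

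Starch is a mixture of amylose, which is nearly linear, and amylopectin, which is branched in a regular way. Starch synthases lengthen glucan chains from ADP-glucose, branching enzymes cut a chain and rejoin it as a branch, and debranching enzymes remove branches, which lets amylopectin pack into crystalline granules. Classical kernel mutants of maize mark several of these steps, such as waxy kernels without amylose and sweet kernels with soluble glucan in place of much of the starch.

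Levels are given as the authors deposited them, headed RPKM for dek40 and FPKM for the wild type. Both divide the reads or fragments by the length of the gene, so levels can be set beside each other between genes. As deposited, the median gene was 1.34-fold higher in dek40, or 0.42 on the log2 scale. Before the comparison dek40 was multiplied by 0.747, which sets that median to 0. A log2 ratio is that of the scaled dek40 value plus 1 over the wild-type value plus 1. Genes past 2-fold by this ratio, with a level of at least 1 in either library, were called lower or higher. Each genotype has 1 library, which allows no replicate check and no p-value, and lower and higher describe these libraries alone. The values imply totals of 15669149 for the wild type and 14218436 for dek40. The 8 genes rest on at least 578 to 52895 reads in a library. Intervals beside a ratio are exact Clopper-Pearson 95% intervals from those reads, without the added 1, and cover counting error only.

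All 8 genes were below the wild type, as were 48.1% of all genes compared. Of the 8, 6 were lower by 2-fold or more, with 0 higher. Over all genes reaching a level of 1, 4.99% were lower and 6.33% were higher. The median log2 ratio of the 8 was -1.17, against 0.02 over all 28178 genes compared. The granule-bound synthase wx1 stood apart from the other 7 at -2.90, and du1 and zpu1 were within 2-fold. With the values as deposited, all 8 were still below the wild type, against 23.2% of all genes. Only wx1 of the 8 was then past 2-fold, where 2.65% of all genes were lower and 14.7% higher. Among the 1409 genes with a geometric mean level of 100 or more, 10.6% were lower and 3.76% higher after scaling, with a median log2 ratio of -0.06. In these bulk samples, fewer starch-storing cells and less of the transcript per cell cannot be told apart.

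**Figure D1:**
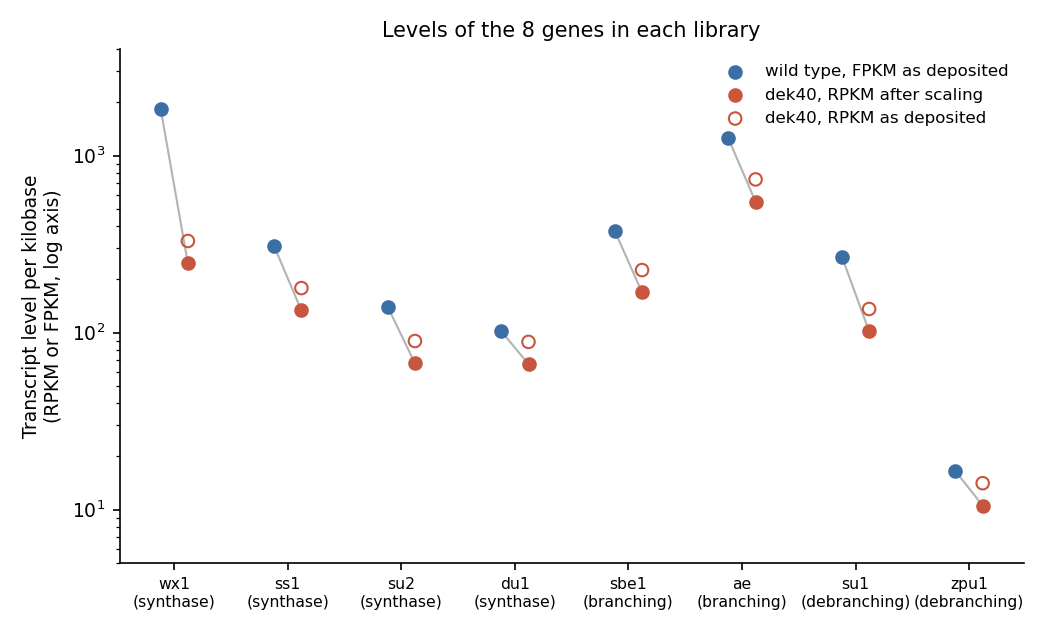
Transcript levels of the 8 genes (vertical axis, RPKM or FPKM, log axis) in the wild type and in the library labelled dek40, the latter both after scaling and as deposited, with 1 library per genotype and no error bars. For each gene both dek40 points lie below the wild-type point, and the gap is widest for wx1, from 1848 FPKM to 330 RPKM as deposited.

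Granule-bound starch synthase 1, wx1 (GRMZM2G024993), makes amylose inside the granule. It was at 1848 FPKM in the wild-type library and at 330 RPKM in dek40, on at least 52895 and 8565 reads. After scaling this left 13.3% of the wild-type level, 7.47-fold lower, with a log2 ratio of -2.90 and a counting interval of -2.94 to -2.87. The gene was the 63rd most abundant of all genes in the wild type and the 585th in dek40, places that do not depend on the scaling. Of all genes compared, 0.248% had a lower ratio.

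Starch synthase I, ss1 (GRMZM2G129451), extends the shortest chains of amylopectin. It was at 308 FPKM in the wild-type library and at 179 RPKM in dek40, with a log2 ratio of -1.20 and an interval of -1.26 to -1.16. The sugary2 gene su2 (GRMZM2G348551) encodes starch synthase IIa, which makes chains of intermediate length. It was at 140 FPKM in the wild-type library and at 89.7 RPKM in dek40, with a log2 ratio of -1.05 and an interval of -1.13 to -0.996 that spanned the 2-fold limit. Both were called lower after scaling and were within 2-fold as deposited, at -0.78 and -0.64.

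The dull endosperm gene du1 (GRMZM2G141399) encodes starch synthase III, which makes longer chains of amylopectin. It was at 102 FPKM in the wild-type library and at 88.7 RPKM in dek40. Its log2 ratio of -0.61, with an interval of -0.67 to -0.57, was the nearest to 0 of the synthases, and it was -0.20 as deposited. Of all genes compared, 12.6% had a lower ratio than du1, so its difference was common among the genes of these libraries.

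Of the branching enzymes, ae (GRMZM2G032628) encodes branching enzyme IIb, the main one of the endosperm, whose loss gives starch rich in amylose. It was at 1253 FPKM in the wild-type library and at 735 RPKM in dek40, on at least 47064 and 25043 reads. The log2 ratio was -1.19 with an interval of -1.21 to -1.17, and the gene moved from the 95th to the 193rd most abundant. Branching enzyme I, sbe1 (GRMZM2G088753), was at 376 FPKM in the wild-type library and at 226 RPKM in dek40. Its log2 ratio was -1.15 with an interval of -1.19 to -1.11. The identifier of sbe1 matched 2 loci in the RefSeq gene table, so how the authors' counting divided their reads is uncertain. Both branching enzyme genes were lower after scaling and within 2-fold as deposited, at -0.77 for ae and -0.73 for sbe1.

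The debranching enzymes differed from each other. The sugary1 gene su1 (GRMZM2G138060) encodes an isoamylase that trims misplaced branches during amylopectin synthesis. It was at 269 FPKM in the wild-type library and at 136 RPKM in dek40, with a log2 ratio of -1.40 and an interval of -1.46 to -1.35. This was the lowest ratio after that of wx1, and it was -0.98 as deposited, just within 2-fold. The pullulanase gene zpu1 (GRMZM2G158043), whose enzyme acts in both starch synthesis and breakdown, was the least abundant of the 8. It was at 16.5 FPKM in the wild-type library and at 14.1 RPKM in dek40, on at least 745 and 578 reads. Its log2 ratio was -0.60, with an interval of -0.81 to -0.49, and it was -0.21 as deposited.

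**Figure D2:**
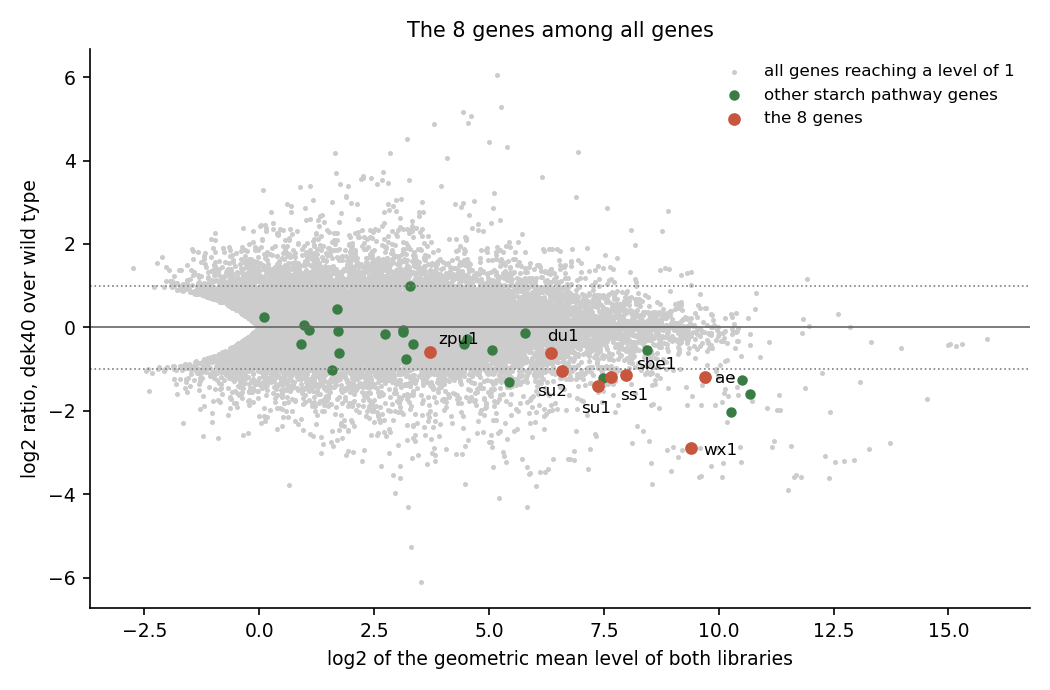
Each point is a gene reaching a level of 1 in either library, by the log2 of the geometric mean level (horizontal axis) and the log2 ratio of dek40 over the wild type after scaling (vertical axis), with dotted lines at 2-fold. The 8 genes all lie below 0, from -0.60 for zpu1 to -2.90 for wx1, and of 24 other genes of the starch pathway 20 lie below 0 and 18 are within 2-fold. Of all 28178 genes compared, 48.1% lie below 0 and 24988 are within 2-fold.

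The order of the levels was almost the same in both libraries. In the wild type wx1 was highest, followed by ae, sbe1, ss1, su1, su2, du1 and zpu1. In dek40 ae was highest, wx1 came second and the other 6 kept their order. Neighbours in the wild-type order differed by more than counting error, the closest being ss1 over su1 by 1.14-fold (Wald 95% interval 1.11 to 1.18). In dek40, su2 and du1 were level, with a ratio of 1.01 (0.97 to 1.06). The highest of the 8 stood 112-fold above the lowest in the wild type and 52.2-fold above it in dek40.

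Ratios between genes within a library do not depend on how the libraries are scaled to each other. They would also not depend on whether a column counts reads or fragments if the reads per fragment were alike for all genes. That condition was not tested. The intervals of the changes in these ratios are Wald 95% intervals from the reads and cover counting error only. In the wild type wx1 was at 1.47 times the level of ae, and in dek40 at 0.449 times. The wx1 ratio to ae was thus 3.29-fold lower in dek40, a log2 change of -1.72 (-1.76 to -1.68). Against du1, wx1 went from 18.1 times to 3.72 times, a log2 change of -2.28 (-2.34 to -2.23). The difference of wx1 from the other genes was therefore present without any scaling.

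Within the branching enzymes, by contrast, the balance was nearly the same in both libraries. The level of ae was 3.34 times that of sbe1 in the wild type and 3.25 times in dek40, a log2 change of -0.04 (-0.08 to 0.01). Starch synthase I also kept close to ae, with a log2 change of the ratio of -0.02 (-0.07 to 0.04). The next genes in the order of ratios did differ, with a log2 change of -0.20 (-0.27 to -0.13) for su1 against ss1. For sbe1 against su2 it was -0.09 (-0.17 to -0.02). Thus only ss1 and sbe1 did not differ from ae in their ratios beyond counting error. The same held for du1 and zpu1, with a log2 change of their ratio of 0.02 (-0.14 to 0.19). The level of su1 was 16.3 times that of zpu1 in the wild type and 9.66 times in dek40, a log2 change of -0.76 (-0.92 to -0.59).

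The make-up of each enzyme set followed from these differences. Of the summed level of the 4 synthases, wx1 made up 77.1% in the wild type and 48.0% in dek40. The share of ss1 was 12.8% in the wild type and 26% in dek40. That of su2 was 5.83% and 13.1%, and that of du1 4.25% and 12.9%. All 3 synthases of amylopectin thus held larger shares in dek40, although each was below its wild-type level. Of the branching enzymes, ae made up 76.9% in the wild type and 76.5% in dek40. Of the debranching enzymes, su1 made up 94.2% and 90.6%.

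**Figure D3:**
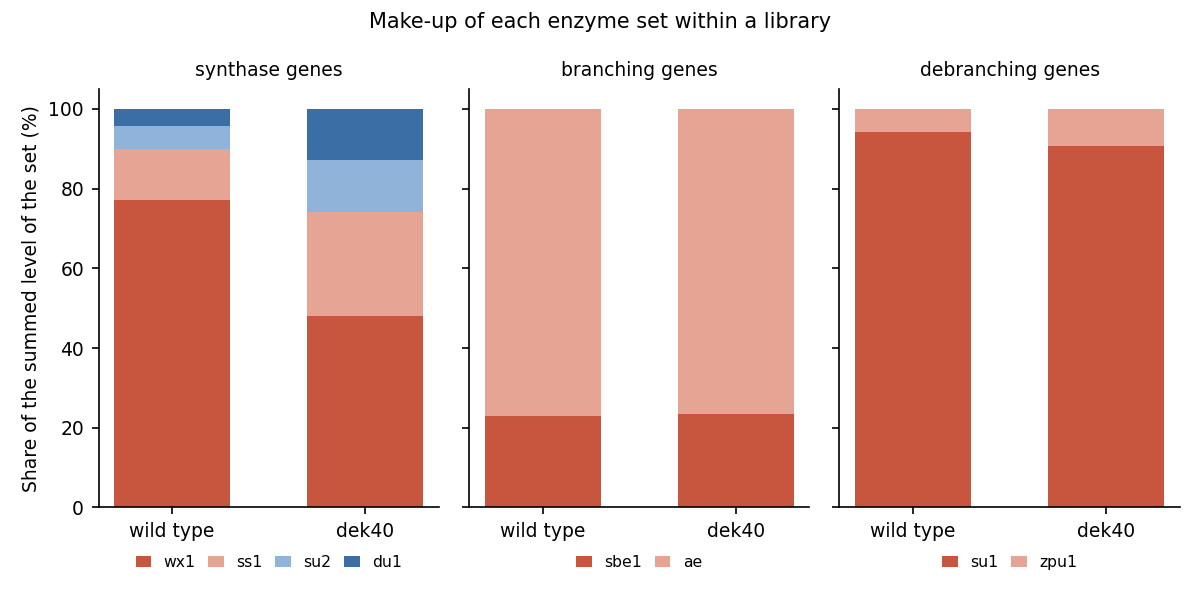
Share of each gene (vertical axis, percent) in the summed level of the 4 synthase, the 2 branching and the 2 debranching enzyme genes, within the wild type and within the library labelled dek40. The wx1 part of the synthase bar is 77.1% in the wild type and 48.0% in dek40, while the parts of the branching enzyme bars are nearly equal.

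The 8 genes together summed to 4312 FPKM in the wild-type library and to 1797 RPKM in dek40. This was 0.299% of the summed level of all genes in the wild type and 0.130% in dek40. After scaling the sum was 3.21-fold lower, and 2.25-fold lower without wx1. By set, the summed level was 4.67-fold lower for the synthases, 2.27-fold for the branching enzymes and 2.55-fold for the debranching enzymes. As deposited these were 3.49-fold, 1.70-fold and 1.90-fold.

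Relatives of these enzymes give a comparison within the same tissue. Among 6 other starch synthase genes 0 were past 2-fold in either direction, with a median log2 ratio of -0.39. Most genes were within 2-fold as well, with 4.99% of all genes compared lower and 6.33% higher. They were far less abundant, at 2.32 to 25.3 FPKM in the wild type. GBSSIIa (GRMZM2G008263), a further granule-bound synthase, was at 25.3 FPKM in the wild-type library and at 25.5 RPKM in dek40, its log2 ratio being -0.39. Starch synthase IV (GRMZM2G044744), which in Arabidopsis is needed to start granules, was at 11.8 FPKM and at 11.7 RPKM, its log2 ratio being -0.39. Starch synthase V (GRMZM2G130043) was at 12.3 FPKM and at 9.23 RPKM, its ratio being -0.75, and starch synthase IIc (GRMZM2G126988) was at 9.18 FPKM and at 11.2 RPKM, its ratio being -0.12. The highest ratio of the 6 was that of starch synthase IIIb-1 (GRMZM2G121612), at 0.45 with an interval of 0.29 to 0.88.

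The other branching and debranching enzyme genes were also within 2-fold, as were 24988 of the 28178 genes compared. Branching enzyme IIa (GRMZM2G073054), a close relative of ae that is known mainly from leaves, was at 58.2 FPKM in the wild-type library and at 70.9 RPKM in dek40, its log2 ratio being -0.13. The isoamylase-type gene ISO3 (GRMZM2G150796) was at 7.15 FPKM and at 8.36 RPKM, its ratio being -0.17. Sugary4 (GRMZM2G090905), an isoamylase that forms a complex with the su1 enzyme, was at 3.38 FPKM and at 4.21 RPKM, its ratio being -0.08.

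Each of 5 of the 8 genes has relatives of the same class by name, and 7 such pairs were formed after the values had been seen. In all 7 pairs the ratio of the listed gene to its relative was lower in dek40. This direction follows from the log2 ratios of the single genes, and no share over other gene pairs was taken. The wx1 level was 73 times that of GBSSIIa in the wild type and 12.9 times in dek40, a log2 change of -2.50 (-2.65 to -2.34). The ae level was 21.5 times that of branching enzyme IIa in the wild type and 10.4 times in dek40, a change of -1.05 (-1.14 to -0.97). The du1 level went from 38.3 to 16.6 times that of starch synthase IIIb-1, a change of -1.20 (-1.50 to -0.91). Thus du1 was itself within 2-fold, while its ratio to this relative was 2.31-fold lower in dek40. Both genes entered that change, since after scaling du1 was at 65.0% of its wild-type level and starch synthase IIIb-1 at 150%. The latter was at 2.66 FPKM in the wild-type library, on at least 149 reads there and 271 in dek40.

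For su1 the change was -1.21 (-1.46 to -0.96) against ISO3 and -1.30 (-1.66 to -0.94) against Sugary4. For su2 it was -0.93 (-1.24 to -0.62) against starch synthase IIc. Against starch synthase IIb-2 (GRMZM2G105791), at 2.32 FPKM in the wild-type library and at 2.06 RPKM in dek40, it was -0.47 (-0.96 to 0.02), within counting error. The pairs share a member where the same gene appears in more than 1 of them, and they compare only these 2 libraries.

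**Figure D4:**
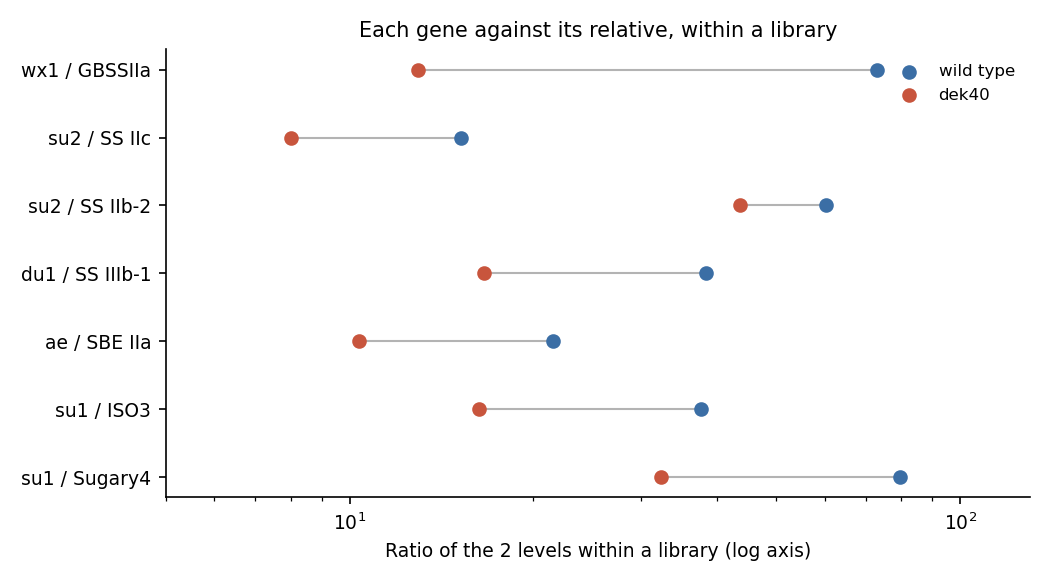
Level of each listed gene divided by that of a relative of the same class (horizontal axis, log axis) within the wild type and within the library labelled dek40, for 7 pairs. In every pair the dek40 point lies to the left, with the widest gap for wx1 over GBSSIIa, from 73 to 12.9 times.

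The rest of the pathway was taken by words in the gene descriptions and by symbols. Over all 24 other genes, 6 were lower and 0 higher after scaling, with a median log2 ratio of -0.39, and as deposited 2 were lower and 1 higher. The shares of all genes compared were 4.99% lower and 6.33% higher after scaling, and 2.65% and 14.7% as deposited. Of the 6 lower genes, 5 were among the 8 that supply ADP-glucose, the substrate of the synthases. The transporter bt1 (GRMZM2G144081), which carries ADP-glucose into the amyloplast, had a log2 ratio of -2.03. The subunit genes of ADP-glucose pyrophosphorylase bt2 (GRMZM2G068506) and sh2 (GRMZM2G429899) had ratios of -1.61 and -1.26. Further subunit genes were lower at -1.21 (Agpsemzm, GRMZM2G106213) and -1.31 (GRMZM2G391936), while AGP2 (GRMZM2G027955) was within 2-fold at -0.54, as was AGPLS3 (GRMZM2G144002) at -0.07. The wx1 ratio was below every one of these.

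The starch phosphorylase gene pho1 (GRMZM2G074158) was more abundant than sbe1 in either library, at 420 FPKM in the wild-type library and at 383 RPKM in dek40. Its log2 ratio of -0.55 (-0.59 to -0.52) was close to those of du1 and zpu1. Of 5 starch breakdown genes, 1 beta-amylase (GRMZM2G450125) was lower, at 4.79 FPKM in the wild-type library and at 2.49 RPKM in dek40, a ratio of -1.01. Its interval of -1.82 to -0.91, on at least 129 and 61 reads, spanned the 2-fold limit. An alpha-amylase gene (GRMZM2G103055), whose enzyme cuts starch chains internally, was at 6.69 FPKM and 19.1 RPKM. Its ratio of 0.99 (0.82 to 1.37) was just within 2-fold after scaling and was 1.39 as deposited. Without the added 1, which the interval also leaves out, its scaled level was 213% of the wild-type level and so past 2-fold. A beta-amylase gene at a higher level (GRMZM2G446515) was at 25.2 FPKM and at 27.6 RPKM, its ratio being -0.28.

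**Figure D5:**
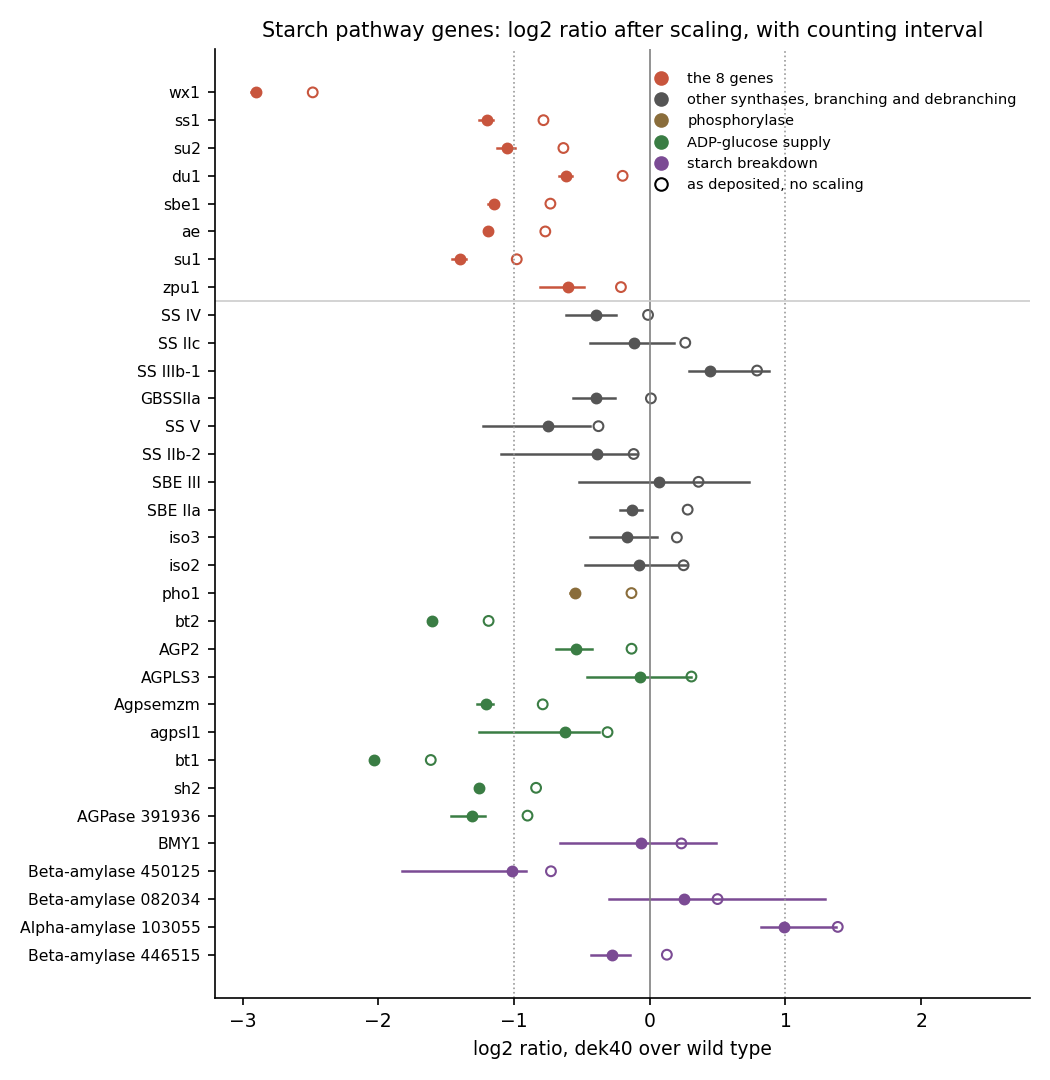
Log2 ratios of dek40 over the wild type (horizontal axis) for the 8 genes, above the line, and 24 other starch pathway genes, below it. Filled points are after scaling with the exact 95% counting interval as a bar, open points are as deposited, and dotted lines mark 2-fold. The 8 genes lie at or below -0.60, most ADP-glucose supply genes lie beside them, and the other synthases lie between -0.75 and 0.45.

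The 3 genes with a symbol that lay nearest to wx1 in wild-type level and log2 ratio were all zeins, which encode seed storage proteins. They were z1C1_6 (GRMZM2G346895, -2.93), z1C1_2 (GRMZM2G388461, -2.90) and the delta zein dzs18 (GRMZM2G100018, -3.11). Likeness here rests on 2 libraries.

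Markers of several cell types of the kernel differed between the libraries as well. All 34 genes of the zein list, which mark the starchy endosperm, were lower, and their summed level was 19.8% of all genes in the wild type and 3.88% in dek40. No other list of starchy endosperm genes was examined. Of 12 basal transfer layer genes 11 were lower and 0 higher, with summed levels of 3392 FPKM and 566 RPKM. The interval of 1 of these, BETL1 (GRMZM2G082785), spanned the 2-fold limit at -1.71 to -0.76. Of 4 aleurone genes 1 was lower and 1 higher, with summed levels of 2868 FPKM and 8034 RPKM that came mostly from AL-9 (GRMZM2G091054). The 4 include Supernumerary aleurone1 (GRMZM2G117935, log2 ratio -0.02), which was not one of the chosen markers AL-9, Nkd1 and Nkd2. The interval of the lower gene, Nkd1 (GRMZM2G129261), spanned the 2-fold limit at -1.13 to -0.97. Of 8 embryo genes 3 were lower and 0 higher, with summed levels of 744 FPKM and 531 RPKM. Of those lower, GRMZM2G410152 rested on at least 8 wild-type and 2 dek40 reads. The interval of another, GRMZM2G096435, spanned the 2-fold limit at -1.91 to -0.63. Of 21 genes of green maternal tissue 11 reached a level of 1, of which 3 were lower and 1 higher, and the list summed to 43.3 FPKM and 30.01 RPKM. This whole list rested on at least 354 wild-type and 264 dek40 reads. These calls are after scaling and the summed levels as deposited. Over all genes compared, 4.99% were lower and 6.33% higher after scaling, and 2.65% and 14.7% as deposited. With calls on the values as deposited, all 34 zeins were lower, the transfer layer had 10 lower and 1 higher, the aleurone 0 lower and 1 higher, the embryo 1 lower and 0 higher, and green tissue 3 lower and 1 higher. Both files list 0 genes at a value of 0, so genes without reads in a library may have been left out. The absence of a marker could therefore not be seen, and the shares over all genes cover listed genes only. The part of these cell types in the values of the 8 starch genes was not tested.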

How the data were processed

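Endosperm RNA was compared between 1 library labelled dek40 and 1 labelled wild type. Per the submitters' processing notes, reads were aligned with Bowtie2 2.1.0 to B73 RefGen v3; the counter, annotation and filters are not stated there. Values were deposited by the authors, 1 for each gene, headed RPKM for dek40 and FPKM for the wild type, per the file headers. From the deposited values, dek40 was multiplied by 0.747, so that the median ratio of the 25115 genes at 1 or more in both libraries was 1. A pseudocount of 1 and a minimum level of 1 were used.

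For all 41406 genes the ratio of the values was a ratio of whole numbers times a constant of 1.10, within a relative tolerance of 3e-14. The smallest whole reads that also gave a whole gene length were used as a lower bound of the reads, for counting intervals only. Whether reads or read pairs were counted is not known. Their sum was 86.4% (wild type) and 86.2% (dek40) of the implied totals. The recovery and the scaling were checked on simulated data.

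Gene names follow the deposited descriptions and a RefSeq gene table (Zm-B73-REFERENCE-NAM-5.0) that held 7 of the 8 identifiers. Its build differs, so no coordinates are given, and no sequences were used here. A lariat debranching enzyme, which acts on RNA, was dropped from the debranching list. The zein list holds the protein-body membrane protein Floury1. The genes and lists were chosen with earlier results of these data known. All 8 genes are named, with pathway genes at 10 or more in a library or past 2-fold, the relatives used in pairs, other subunit genes added after their values were seen, and the 3 nearest to wx1. Analyses used Python 3.11.15, pandas 2.3.3, NumPy 2.4.6 and SciPy 1.17.1.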

Additional observations from a re-analysis of the deposited data

How the results depend on the processing

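Every one of the 8 genes stayed below the wild type under all 8 alternatives tried: values as deposited, scaling to the 75th percentile, to a trimmed mean or to the summed level without zeins, pseudocounts of 0.1 and 5, and a minimum level of 5 or none. Pseudocounts added to both values cannot change a direction, and the minimum levels left the values of the 8 unchanged. The 75th percentile and the trimmed mean moved the dek40 values by only -0.018 and -0.002 on the log2 scale. The scaling without zeins multiplied dek40 by 0.868, against 1 as deposited. It could therefore not reverse a gene that stayed below the wild type as deposited. Direction was thus tried by the values as deposited alone. The 2-fold calls depend on the scaling. As deposited, where the dek40 values are higher by 0.42 on the log2 scale before the pseudocount, 1 of the 8 (wx1) was lower and their median was -0.75. In the other pathway genes 2 were then lower and 1 was higher. Of all genes past 2-fold, 84.7% were then higher, against 55.9% after scaling. Scaling to the summed level without zeins raised the dek40 values by 0.22 on that scale: 2 of the 8 (wx1 and su1) were lower, their median was -0.95, 1 other pathway gene was higher, and 73.3% of calls over all genes were higher. With a pseudocount of 0.1, 1 other pathway gene was higher, the alpha-amylase gene GRMZM2G103055. The count of other pathway genes lower, 6 after scaling, was 5 with a pseudocount of 5 or a minimum level of 5. It was 4 with scaling to the summed level without zeins. The wx1 ratio ranged from -2.92 to -2.48, that of su1 from -1.41 to -0.98 that of du1 from -0.63 to -0.20 and that of zpu1 from -0.64 to -0.21, with -0.47 at a pseudocount of 5. Counting every gene named a starch synthase, wx1 made up 75.1% of the synthase level in the wild type and 43.9% in dek40. No paired analysis was possible because each genotype has 1 library, and none could be left out. The depth limits zpu1 most among the 8, and the least abundant relatives more.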
